A study of Danio rerio with 12 samples.

Results

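The actinodin genes and1 (ENSDARG00000088514), and2 (ENSDARG00000079302) and and3 (ENSDARG00000056873) were described in RNA from larval zebrafish tails. The 3 genes were found by symbol, with letter case ignored, among the 30258 genes of a deposited count table. Every one of the 3 had counts in every library, and all 3 passed the filter on low counts that left 13978 genes for testing. and4, the remaining zebrafish actinodin gene, was not analysed here.

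Actinodins are structural proteins of actinotrichia, the unmineralised fibrils that stiffen the fin fold of a fish larva and the growing edge of an adult fin. In zebrafish embryos they are made in fin fold epidermis and then in fin fold mesenchyme, and loss of and1 together with and2 leaves the fold without actinotrichia. The fibrils also hold type I and type II collagen. Tetrapods have no actinodin genes.

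The study asked what inhibition of TGF-β signalling does while a larval tail regenerates. Its 12 libraries formed 4 groups of 3, namely cut tails with SB431542, uncut tails with SB431542, cut tails with dimethyl sulfoxide (DMSO) and uncut tails with DMSO. SB431542 blocks the kinases of ALK4, ALK5 and ALK7, receptors for TGF-β, activin and nodal ligands, and was given at 50 µM, with 0.1% DMSO as the vehicle control. All larvae were wild type per the labels, which name no strain. In cut groups about 200 µm of tail was removed at 72 h after fertilisation, at the gap in the pigment, and RNA came from a further 200 µm of tissue taken 18 h later. In uncut groups the matching region was taken at 90 h from larvae that had no operation. Drug and vehicle were given for the whole interval from 72 to 90 h. Each library was made from 100 pooled tails, so it averages over larvae, and the labels do not say that pools came from separate clutches. The p-values therefore measure the spread between pools, which may be partly technical.

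Total counts ran from 7368986 to 12914981 per library. Of 42 genes matched to a list of fin fold mesenchyme markers, 0 to 3 were at 0 in a library. Their summed level in CPM, a count relative to the scaled total of its library, was 1831 to 2100 in cut against 1925 to 2246 in uncut SB431542 tails, and 1947 to 2072 in cut against 2348 to 2417 in uncut DMSO tails. Sums of 10 basal epidermis markers were 2639 to 4072 CPM in cut tails, against 4257 to 7535 CPM in uncut tails, and those of 9 periderm markers 5235 to 8633 CPM, against 9483 to 15071 CPM. A sum leans on its most abundant genes. The median log2 fold change of the tested markers, cut over uncut, was -0.40 (basal) and -0.85 (periderm) under DMSO. Under SB431542 it was 0.04 and 0.06, so these markers did not fall as a set there. For the tested mesenchyme markers the median was 0.08 under DMSO, where their sum was lower, and -0.18 under SB431542. Skeletal muscle markers summed to 58167 to 91427 CPM in cut tails, against 102406 to 128886 CPM in uncut tails, and 17 macrophage markers to 885 to 1868 CPM, against 369 to 576 CPM. The groups' ranges did not overlap between cut and uncut tails except for mesenchyme under SB431542, and their part in the actinodin values was not tested. In bulk tissue, fewer cells of a type and less RNA per cell cannot be told apart. The library uncut SB431542 replicate 4 stood apart from the others, with a median correlation of 0.905 with the other 11 libraries against 0.934 to 0.944 for the rest. Values without it are given for the actinodins in the comparisons it enters. They are not given for calls of the listed genes or for the ratios to COL2A1.

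All 3 actinodins were abundant, and none of them passed the test in any of 7 comparisons of excision and SB431542. Levels are CPM scaled by the trimmed mean of M-values (TMM). The libraries were read from the end of each transcript next to the poly(A) tail, so CPM was not divided by transcript length. On that scale and2 averaged 1713 CPM over the 12 libraries and ranked 113 of 13978 tested genes. and1 averaged 743 CPM and ranked 194, and and3 averaged 242 CPM and ranked 404.

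and1 had 515, 577 and 845 CPM in replicates 2, 3 and 4 of cut SB431542 tails, and 568, 707 and 1131 CPM in replicates 2, 3 and 4 of uncut SB431542 tails. It had 733, 785 and 691 CPM in replicates 1, 3 and 4 of cut DMSO tails, against 784, 877 and 698 CPM in replicates 1, 2 and 4 of uncut DMSO tails. Every pair of groups overlapped, and both SB431542 groups were wider than the DMSO groups. Their coefficients of variation were 27.2% in cut and 36.6% in uncut SB431542 tails, against 6.35% in cut and 11.4% in uncut DMSO tails. The lowest mean was that of cut SB431542 tails, followed by cut DMSO, uncut DMSO and uncut SB431542 tails, and no neighbours in this order differed by more than their SDs. Replicate 4 was the highest library in each SB431542 group.

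and2 had 1501, 1552 and 1802 CPM in replicates 2, 3 and 4 of cut SB431542 tails, and 1965, 1832 and 2730 CPM in replicates 2, 3 and 4 of uncut SB431542 tails. It had 1547, 1490 and 1263 CPM in replicates 1, 3 and 4 of cut DMSO tails, against 1608, 1471 and 1795 CPM in replicates 1, 2 and 4 of uncut DMSO tails. The uncut SB431542 libraries lay above all 9 others, and the remaining 3 groups overlapped. Group means were 1618 ± 161 CPM in cut SB431542 tails, 2176 ± 485 CPM in uncut SB431542 tails, 1434 ± 150 CPM in cut DMSO tails and 1625 ± 162 CPM in uncut DMSO tails (SD, n = 3 each). Cut SB431542 and uncut DMSO tails, neighbours in the middle of the order, had nearly the same mean.

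and3 had 201, 235 and 267 CPM in replicates 2, 3 and 4 of cut SB431542 tails, and 301, 289 and 355 CPM in replicates 2, 3 and 4 of uncut SB431542 tails. It had 283, 235 and 111 CPM in replicates 1, 3 and 4 of cut DMSO tails, against 235, 200 and 191 CPM in replicates 1, 2 and 4 of uncut DMSO tails. The uncut SB431542 libraries were again above all 9 others. The mean of 315 ± 35.1 CPM in uncut SB431542 tails was followed by 234 ± 33.0 CPM in cut SB431542 tails, 210 ± 89.2 CPM in cut DMSO tails and 208 ± 23.1 CPM in uncut DMSO tails (SD, n = 3 each). The last 3 did not differ by more than their SDs. Cut DMSO was the widest group for and3, and its replicate 4 had 1209 counts against 3490 and 2472 in replicates 1 and 3.

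**Figure D1:**
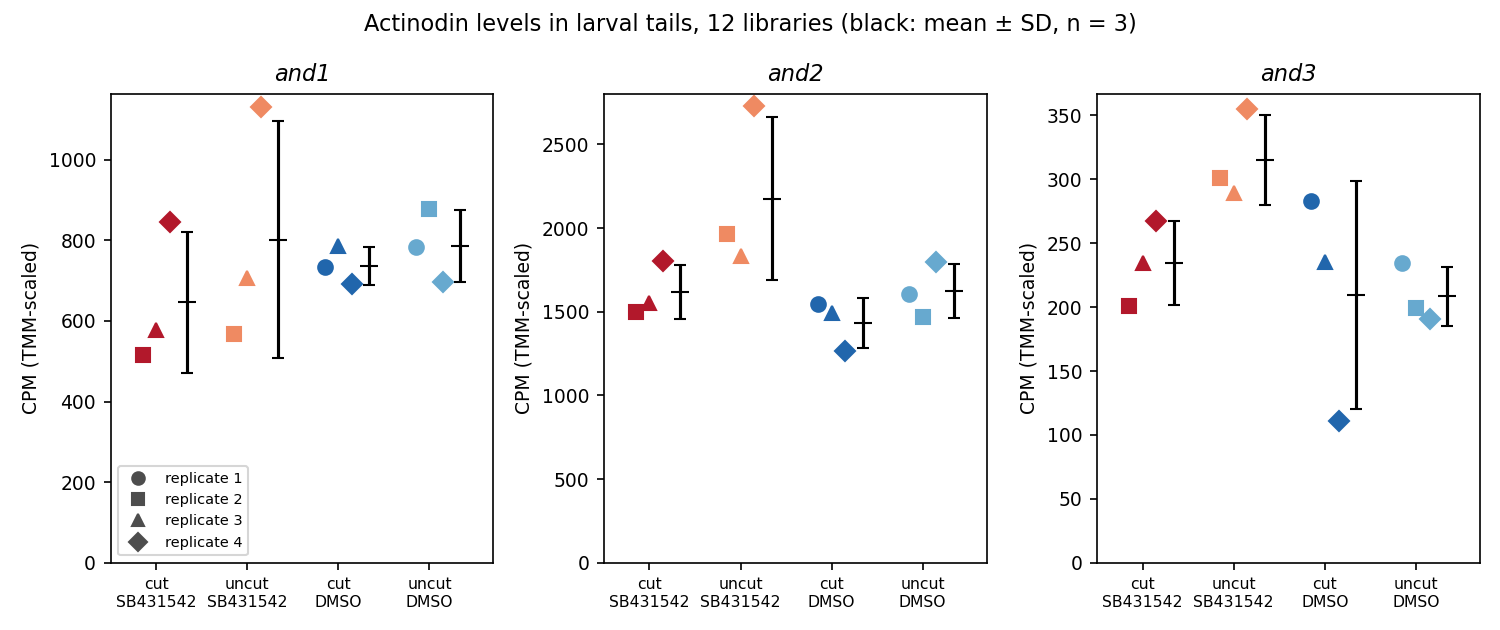
Levels of and1, and2 and and3 in CPM (vertical axes, from 0) for each of the 12 libraries, by group, with replicate numbers as symbols and the mean ± SD of 3 libraries in black. The uncut SB431542 libraries lie above all others for and2 and and3, and replicate 4 of that group, at 1131, 2730 and 355 CPM, is the highest library in each panel.

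Excision under DMSO asked whether actinodin levels in the tissue taken 18 h after a cut differ from those in the matching uncut region. The log2 fold change, cut over uncut, was -0.09 ± 0.22 for and1, -0.18 ± 0.17 for and2 and 0.01 ± 0.25 for and3 (SE; edgeR quasi-likelihood test, adjusted p = 0.860, 0.603 and 0.989). None of the 3 was called, in a comparison where 5.58% of tested genes were. The 95% interval of the fold ran from 0.676 to 1.30 for and1, from 0.686 to 1.13 for and2 and from 0.701 to 1.45 for and3. A 2-fold change in either direction lay outside each interval. The sign for and3 rested on single libraries. Without cut DMSO replicate 4 its log2 fold change was 0.32, and without cut DMSO replicate 1 it was -0.27, with no call in either case. Scaled by library totals alone, and1, and2 and and3 stood at 0.24, 0.17 and 0.375, with none called. The median of all tested genes was then 0.36.

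Excision under SB431542 asked the same question with the receptors inhibited. The log2 fold change, cut over uncut, was -0.31 ± 0.22 for and1, -0.43 ± 0.17 for and2 and -0.43 ± 0.25 for and3 (edgeR adjusted p = 0.544, 0.227 and 0.430). None was called, against 2.06% of tested genes. and2 and and3 had all 3 cut libraries below all 3 uncut libraries, a pattern that 8.95% of tested genes showed. The 95% interval of the fold ran from 0.578 to 0.957 for and2 and from 0.519 to 1.07 for and3. The unadjusted edgeR p of and2 was 0.0237, and 16% of tested genes had one under 0.05. Without uncut SB431542 replicate 4 the log2 fold change was 0.02 for and1, -0.23 for and2 and -0.33 for and3.

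SB431542 against DMSO in cut tails asked whether the inhibitor alters actinodin levels after excision. The log2 fold change was -0.19 ± 0.22 for and1, 0.17 ± 0.17 for and2 and 0.16 ± 0.25 for and3 (edgeR adjusted p = 0.719, 0.656 and 0.789). The groups overlapped for all 3 genes, and none was called, against 0.286% of tested genes. The 95% interval of the fold ran from 0.633 to 1.22 for and1, from 0.878 to 1.45 for and2 and from 0.779 to 1.60 for and3. Without cut DMSO replicate 4 the value for and3 turned to -0.15.

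SB431542 against DMSO in uncut tails asked whether the inhibitor alters them in unoperated larvae. and1 was level, at a log2 fold change of 0.03 ± 0.22 (edgeR adjusted p = 0.966), with a 95% interval of the fold from 0.736 to 1.41. and2 had 0.42 ± 0.17 and and3 0.60 ± 0.25 (edgeR adjusted p = 0.233 and 0.240), or 1.34-fold and 1.51-fold. Both had all 3 SB431542 libraries above all 3 DMSO libraries, which 9.48% of tested genes showed, and neither was called, against 0.0787% of tested genes. Their unadjusted p-values in the same edgeR test were 0.0255 and 0.0275, and 16.5% of tested genes had an unadjusted p under 0.05. Without uncut SB431542 replicate 4 the values were -0.30 for and1, 0.22 for and2 and 0.50 for and3. The uncut SB431542 libraries enter this comparison and that of excision under SB431542, so the differences of and2 and and3 in the 2 comparisons are not separate observations.

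The interaction asked whether excision acts differently with SB431542 than with DMSO. It was -0.22 ± 0.32 for and1, -0.25 ± 0.25 for and2 and -0.44 ± 0.35 for and3 on the log2 scale (edgeR adjusted p = 0.930, 0.916 and 0.910). Of all tested genes, 0% were called. At an unadjusted p under 0.05, edgeR had 706 genes, or 5.05%, and DESeq2 called 2 genes after adjustment. The intervals were wide, running from -0.88 to 0.45 for and1, from -0.76 to 0.27 for and2 and from -1.17 to 0.30 for and3. The 3 interactions were 0.11, -0.05 and -0.34 without uncut SB431542 replicate 4. For and3 the interaction was -0.75 without cut DMSO replicate 4 and -0.16 without cut DMSO replicate 1.

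Averaging over the other factor gave 6 libraries on each side. Cut over uncut then gave -0.20 ± 0.16 for and1, -0.30 ± 0.12 for and2 and -0.21 ± 0.17 for and3 (edgeR adjusted p = 0.462, 0.119 and 0.498), against 12% of tested genes called. Leaving out uncut SB431542 replicate 4 gave -0.04, -0.21 and -0.16, and without cut DMSO replicate 4 that of and3 was -0.06. The signs turned when counts were scaled by library totals alone, to 0.11, 0.02 and 0.13, a scaling under which the median of all tested genes stood at 0.34. SB431542 over DMSO gave -0.08 ± 0.16 for and1, 0.30 ± 0.12 for and2 and 0.38 ± 0.17 for and3 (edgeR adjusted p = 0.805, 0.143 and 0.195), against 7.18% of tested genes called. With uncut SB431542 replicate 4 left out they were -0.25, 0.20 and 0.33, and without cut DMSO replicate 4 that of and3 was 0.23. With library totals alone and2 had 0.38 and and3 0.44.

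**Figure D2:**
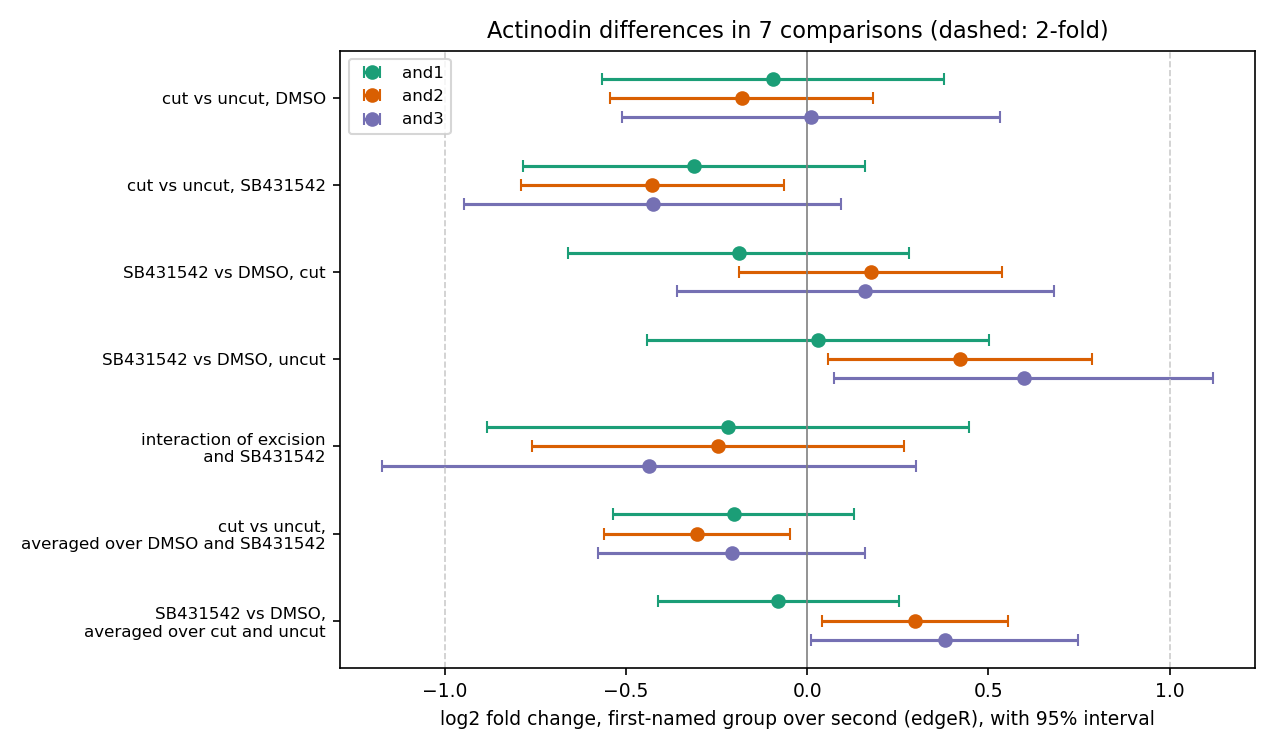
Log2 fold change (horizontal axis) of and1, and2 and and3 in the 7 comparisons, first-named group over second, with 95% intervals from the edgeR fit and dashed lines at 2-fold. Of the simple and averaged comparisons, the interval leaves out 0 for and2 in excision under SB431542 and averaged excision, and for and2 and and3 in SB431542 against DMSO in uncut tails and on average, and no adjusted p passed 0.05. Of all tested genes, 16%, 25.6%, 16.5% and 24% had an unadjusted edgeR p under 0.05 in these comparisons, in that order.

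The order of the 3 genes, and2 above and1 above and3, was the same in all 12 libraries. Of their summed counts, and2 made up 57.7% to 69.3%, and1 20.0% to 34.4% and and3 5.35% to 11.1%. Together they took 0.201% to 0.386% of a library's counts. The ratio of and2 to and1 counts, which needs no scaling, averaged 2.58 ± 0.40 in cut SB431542 tails, 2.82 ± 0.56 in uncut SB431542 tails, 1.95 ± 0.15 in cut DMSO tails and 2.10 ± 0.45 in uncut DMSO tails (SD, n = 3 each). In single libraries this ratio was 2.91, 2.69 and 2.13 in cut SB431542 tails, against 2.11, 1.90 and 1.83 in cut DMSO tails. It was 3.46, 2.59 and 2.41 in uncut SB431542 tails, against 2.05, 1.68 and 2.57 in uncut DMSO tails. All 3 SB431542 libraries exceeded all 3 DMSO libraries in cut tails, though the nearest were 2.13 and 2.11, while the uncut groups overlapped. The ratio of and1 to and3 separated in uncut tails instead, and its cut groups overlapped. In uncut tails it was 1.89, 2.45 and 3.19 with SB431542, against 3.34, 4.39 and 3.65 with DMSO. The ratio of and2 to and3 overlapped in both tail types. How often ratios of other genes separate in this way was not computed, and no test was made of a ratio between members.

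**Figure D3:**
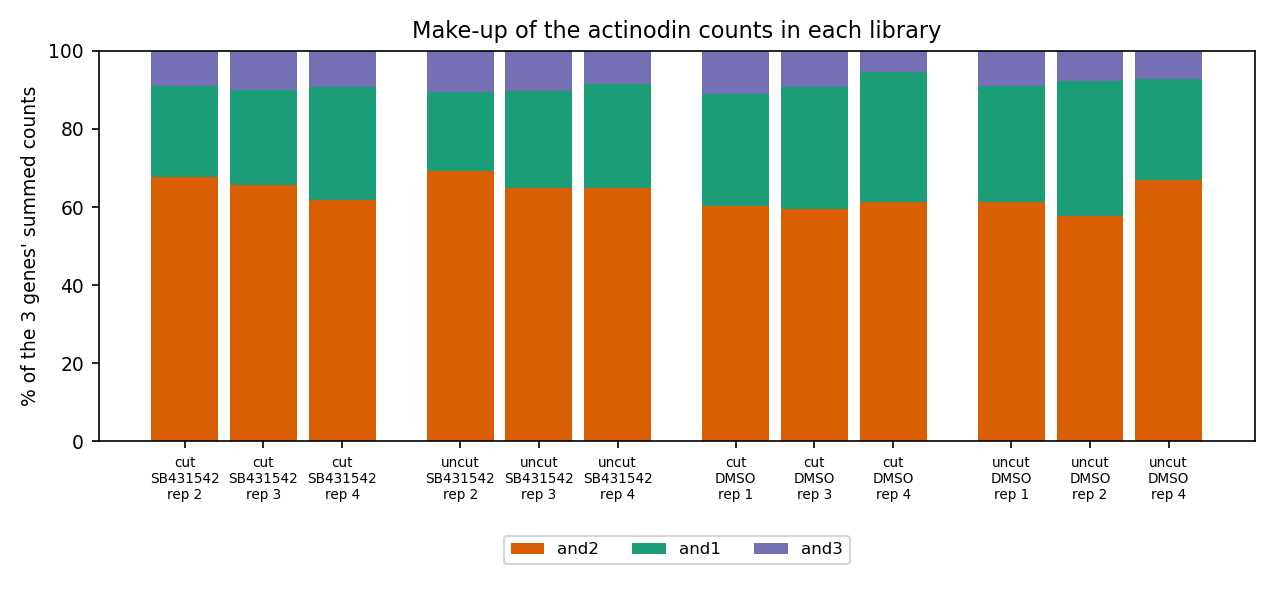
Share of and2, and1 and and3 in their summed counts (vertical axis, %) in each of the 12 libraries. and2 is the largest share everywhere, between 57.7% and 69.3%, and the smallest and3 share, 5.35%, is in cut DMSO replicate 4.

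Over the 12 libraries, the correlation was highest between and2 and and3. With group means removed, and1 with and2 came first, but only while uncut SB431542 replicate 4 was kept in the correlation. The Pearson correlation of log2 CPM was 0.765 between and2 and and3 (permutation p = 0.0101, 0.0302 adjusted over 3 pairs), with a Spearman correlation of 0.741 (permutation p = 0.00774, 0.0232 adjusted). The permutations moved libraries freely between the 4 groups, so the p-values here also take in differences between groups. Without the 2 libraries farthest from the median of and2, uncut SB431542 replicate 4 and cut DMSO replicate 4, Pearson's r was 0.524. For and1 with and2 the Pearson correlation was 0.469 (permutation p = 0.126, 0.190 adjusted) and the Spearman correlation 0.105 (permutation p = 0.749, 0.749 adjusted), and Pearson's r was -0.246 without the 2 libraries farthest from the median of and1. Without uncut SB431542 replicate 4 it was -0.0877. For and1 with and3 the Pearson correlation was 0.292 (permutation p = 0.351, 0.351 adjusted) and the Spearman correlation 0.238 (permutation p = 0.455, 0.683 adjusted), with r at -0.0881 without the farthest 2. On deviations from the group means Pearson's r was 0.677 for and1 with and2, 0.582 for and2 with and3 and 0.380 for and1 with and3. With uncut SB431542 replicate 4 left out of the correlation, the same 3 values were 0.457, 0.630 and 0.357. The mean of its group still included that library, and values with the mean taken without it were not computed.

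The genes whose levels ran most like the actinodins were ranked by their mean Pearson correlation with the 3 members over the 12 libraries, among 7859 named genes of at least 5 CPM. The first 8 were KLF11, tnn, apol1, KLHL41, MYC, tmem51a, HPD (ENSDARG00000044935) and PRRX1 (ENSDARG00000042027), with mean correlations from 0.762 to 0.737. tnn encodes a tenascin of the extracellular matrix and averaged 194 CPM, and its correlation was 0.595 with and1, 0.891 with and2 and 0.798 with and3. KLHL41, a kelch gene of skeletal muscle, had a mean correlation of 0.751, and of 0.592 without uncut SB431542 replicate 4, where it ranked 3. PRRX1 encodes a homeobox factor of limb and fin mesenchyme, but the other gene with that symbol, ENSDARG00000033971, had a mean correlation of -0.0137, and CYP26B1, another gene of the mesenchyme list, had -0.568. Libraries share scaling and group differences, so these values describe likeness only. Without uncut SB431542 replicate 4 the mean correlations of tnn and PRRX1 were 0.568 and 0.535, and tnn ranked 13 of the 7859.

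Several collagen genes fell after excision in the comparisons in which no actinodin was called, but no difference between collagens and actinodins was tested. Of 16 tested collagen genes of actinotrichia and their close partners, 6 fell and 0 rose in cut against uncut tails under DMSO, and 5 fell and 0 rose under SB431542. Among all tested genes, 1.93% and 0.572% were called lower in these comparisons. The 16 had a median log2 fold change of -0.46 under DMSO, against 0.02 for all tested genes, and -0.47 under SB431542, against 0.00 for all tested genes. COL11A1 (ENSDARG00000026165), a fibrillar collagen, had 437 ± 89.6 CPM in cut DMSO tails, against 1301 ± 263 CPM in uncut DMSO tails (edgeR adjusted p = 4.78e-05). COL9A2, which coats type II fibrils, had 134 ± 11.5 CPM in cut SB431542 tails, against 355 ± 39.0 CPM in uncut SB431542 tails (edgeR adjusted p = 7.35e-05). col9a1b and COL11A2 also fell in both comparisons, by log2 fold changes of -1.49 and -1.73 under DMSO and of -1.32 and -1.40 under SB431542. The called genes were of types II, IX and XI under DMSO and of types IX and XI under SB431542. The type I genes col1a1a, COL1A1 (ENSDARG00000035809) and COL1A2 were not called, at log2 fold changes of -0.46, -0.38 and -0.37 under DMSO (edgeR adjusted p = 0.114, 0.209 and 0.205) and -0.55, -0.44 and -0.39 under SB431542 (edgeR adjusted p = 0.0928, 0.202 and 0.248). On average over both treatments these 3 were called lower, at -0.51, -0.41 and -0.38 (edgeR adjusted p = 0.00753, 0.0307 and 0.0388). Types II, IX and XI are made in notochord and cartilage as well, and 3 of the 16 collagens also stand among 11 notochord markers. The other 8 notochord markers summed to 597 to 780 CPM in cut tails, against 1010 to 1341 CPM in uncut tails. Of the 6 tested, 2 rose and 1 fell under DMSO and 1 fell under SB431542, with a median log2 fold change of 0.09 under DMSO and -0.34 under SB431542. Their part in the collagen differences was not tested. In SB431542 against DMSO, 0 of the 16 were called in cut tails and 0 in uncut tails. Of all tested genes, 0.286% and 0.0787% were called there, so these counts are no result about the collagens.

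**Figure D4:**
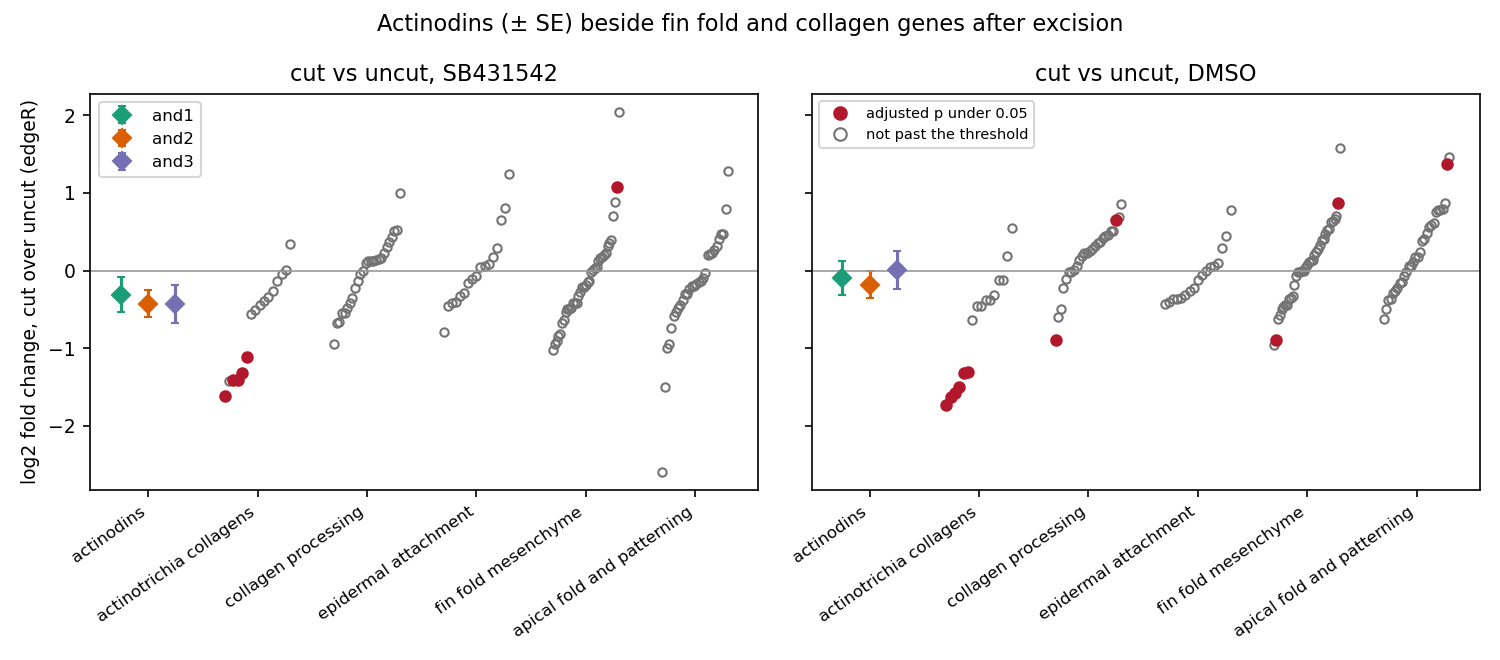
Log2 fold change after excision (vertical axis, cut over uncut) under SB431542 and under DMSO for the 3 actinodins, with SE, and for the tested genes of 5 lists, where filled red points passed an adjusted p of 0.05. The actinodins lie between -0.43 and 0.01, and the 16 tested collagens have medians of -0.46 under DMSO and -0.47 under SB431542. Called genes are picked by the size of their change, and no difference between actinodins and collagens was tested.

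The ratio of each actinodin to the type I and type II collagens of actinotrichia was also taken within libraries. The partners were chosen after their values were seen, and a ratio moves with its denominator, so the ratios are given as a description. A permutation test was run on them, and its p-values are not given for the same reasons. The 5 partner genes were col1a1a, COL1A1 (ENSDARG00000035809), COL1A2 and both genes with the symbol COL2A1. COL2A1 (ENSDARG00000069093), a cartilage and notochord collagen gene, had 262, 189 and 168 CPM in replicates 1, 3 and 4 of cut DMSO tails, against 1082, 488 and 351 CPM in replicates 1, 2 and 4 of uncut DMSO tails. It had 351, 395 and 354 CPM in replicates 2, 3 and 4 of cut SB431542 tails, against 1053, 623 and 1264 CPM in replicates 2, 3 and 4 of uncut SB431542 tails. This gene was itself called lower after excision under DMSO, at a log2 fold change of -1.63 (edgeR adjusted p = 0.0276), and on average, at -1.53 (edgeR adjusted p = 0.00318). and2 had 5.91, 7.90 and 7.51 counts per count of this gene in cut DMSO tails, against 1.49, 3.02 and 5.11 in uncut DMSO tails. Under SB431542 the same ratio was 4.27, 3.93 and 5.08 in cut tails, against 1.87, 2.94 and 2.16 in uncut tails. Cut and uncut libraries did not overlap in this ratio under either treatment, for and2 or for the other actinodins. The CPM of this COL2A1 gene alone did not overlap either. How often the ratio of other genes to it separates in this way was not computed, so the separation is no result about the actinodins.

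Averaged over both treatments, the ratio to that COL2A1 gene was 2.36-fold higher in cut tails for and1, 2.19-fold for and2 and 2.24-fold for and3 (n = 6 each). The 3 ratios share this denominator, and the size of each carries its fall. For the other COL2A1 gene, ENSDARG00000011407, the ratio was 1.30-fold higher for and1, 1.204-fold for and2 and 1.23-fold for and3. For col1a1a it was 1.25-fold, 1.16-fold and 1.18-fold higher, for COL1A1 1.16-fold, 1.08-fold and 1.101-fold, and for COL1A2 1.14-fold, 1.06-fold and 1.09-fold. Under SB431542 alone, and2 to COL1A2, and3 to COL1A1 and and3 to COL1A2 had small negative log2 differences, of -0.02, -0.0056 and -0.04. All 5 partner genes were called lower in cut tails on average over both treatments, so a common sign of these ratios is no separate observation on the actinodins.

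For SB431542 against DMSO, averaged over cut and uncut tails, 10 of the 15 ratios were higher and 5 lower. and2 was 1.36-fold relative to COL1A2 and 1.54-fold relative to COL2A1 (ENSDARG00000011407), but 0.708-fold relative to COL2A1 (ENSDARG00000069093). and1 was 0.768-fold relative to COL1A1 and 1.02-fold relative to COL1A2. The direction thus depended on the partner gene.

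**Figure D5:**
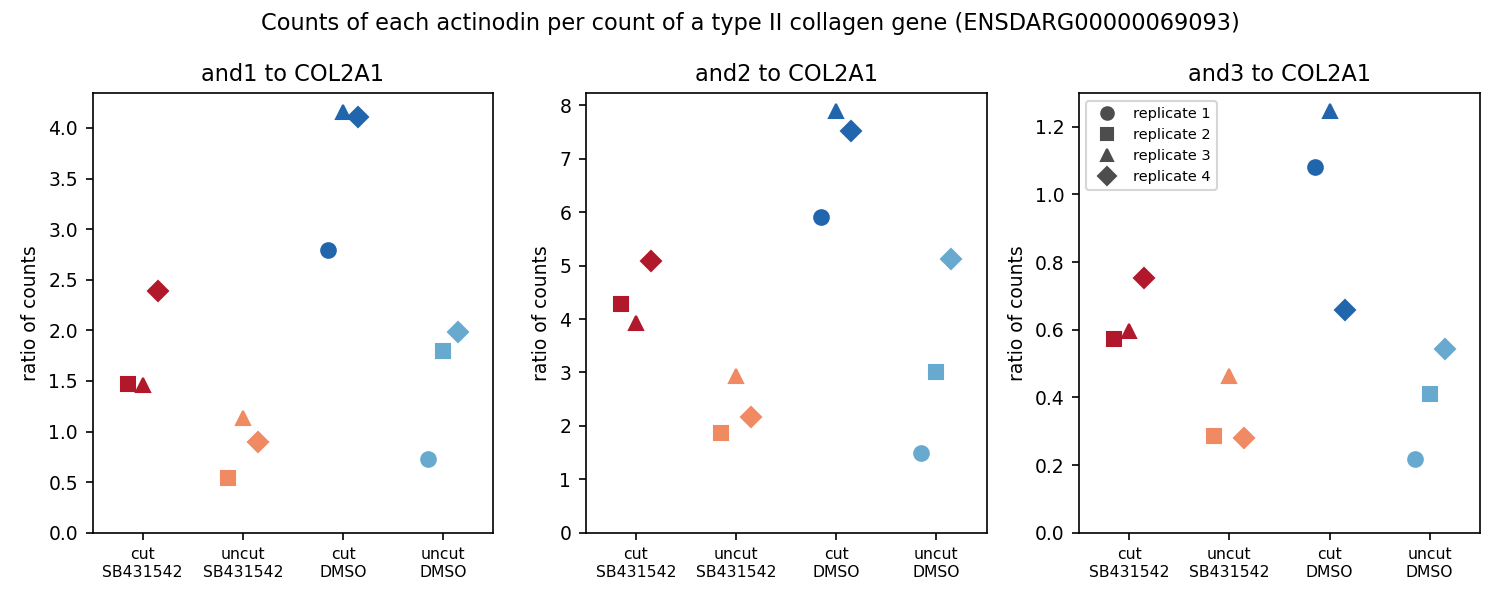
Counts of and1, and2 and and3 per count of COL2A1 (ENSDARG00000069093) in each of the 12 libraries (vertical axes, from 0), by group. In each panel the cut libraries lie above the uncut libraries of the same treatment, as with and2 at 3.93 to 5.08 in cut against 1.87 to 2.94 in uncut SB431542 tails. The CPM of this collagen gene alone also separates these groups, and the share of other genes with such a ratio was not computed.

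In the other 4 lists of fin fold and fibril formation, 5 of 110 tested genes, or 4.55%, were called after excision under DMSO, near the 5.58% of all tested genes. Under SB431542 it was 1 of 110, or 0.909%, against 2.06%. Averaged over both treatments it was 18 of 110, or 16.4%, against 12% of all tested genes. Of the 37 tested mesenchyme genes, 6 rose and 5 fell in that averaged comparison. Of 26 tested genes that process or cross-link collagen, 1 rose and 1 fell after excision under DMSO, and 0 were called under SB431542. sec23a, a coat gene for collagen export, had 61.8 ± 10.02 CPM in cut DMSO tails, against 39.2 ± 1.81 CPM in uncut DMSO tails (edgeR adjusted p = 0.0447). LOXL2 (ENSDARG00000044074), a lysyl oxidase gene, had 8.14 ± 1.83 CPM in cut DMSO tails, against 15.2 ± 3.61 CPM in uncut DMSO tails (edgeR adjusted p = 0.0374). PCOLCE2 (ENSDARG00000055575), an enhancer of procollagen trimming, was the only one of these lower with SB431542 in cut tails, at 5.72 ± 1.56 CPM, against 21.2 ± 4.19 CPM in cut DMSO tails (edgeR adjusted p = 0.0086). Its list had 0 calls in uncut tails, where 0.0787% of all tested genes were called.

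Of 17 tested genes that attach the fin fold to its epidermis, 0 were called in excision under DMSO or SB431542, and 0 in SB431542 against DMSO in cut or uncut tails. The shares of all tested genes called were 5.58%, 2.06%, 0.286% and 0.0787%, in that order. ITGB4 (ENSDARG00000028507), an integrin of hemidesmosomes, averaged 91.7 CPM and PXN (ENSDARG00000088590), a focal adhesion adaptor, 66.0 CPM. Of 37 tested fin fold mesenchyme genes, 1 rose and 1 fell after excision under DMSO. PRRX1 (ENSDARG00000033971) had 26.7 ± 2.40 CPM in cut DMSO tails, against 14.5 ± 1.61 CPM in uncut DMSO tails (edgeR adjusted p = 0.0177). FGFR1 (ENSDARG00000011027), a fibroblast growth factor receptor, had 32.4 ± 3.14 CPM in cut DMSO tails, against 60.4 ± 9.26 CPM in uncut DMSO tails (edgeR adjusted p = 0.00625). Under SB431542 the retinoic acid hydroxylase gene CYP26B1 alone rose, with 14.2 ± 2.73 CPM in cut tails, against 6.86 ± 1.77 CPM in uncut tails (edgeR adjusted p = 0.0325).

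Of 30 tested genes of the apical fold and distal patterning, PRDM1 (ENSDARG00000002445), a transcriptional repressor gene, alone rose after excision under DMSO, with 11.2 ± 4.69 CPM in cut DMSO tails, against 4.44 ± 1.98 CPM in uncut DMSO tails (edgeR adjusted p = 0.0246). Under SB431542 0 of the 30 were called. HOXA11 (ENSDARG00000007009) and AXIN2, the most abundant of the list, averaged 95.5 and 44.1 CPM and were not called. In SB431542 against DMSO, 0 mesenchyme and 0 apical fold genes were called in either tail type. Of all tested genes, 0.286% were called in cut and 0.0787% in uncut tails, so these counts are no result about the lists. Averaged over both tail types, 3 mesenchyme genes were called higher, and 2 apical fold genes higher and 1 lower. The median log2 fold change of the mesenchyme genes, cut over uncut, was 0.08 under DMSO and -0.18 under SB431542, against 0.02 and 0.00 for all tested genes.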

How the data were processed

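The authors deposited estimated counts per Ensembl gene, not normalized, and a table of signal per gene. Each deposited signal value is a rounded count times 1 factor per library, and dividing by it gave whole reads for 100% of values (within 1e-04), equal to the rounded counts. Per the submitters' processing notes the genome build was GRCz11. Libraries were Lexogen QuantSeq FWD per the labels' protocols. Which aligner and counter were used is not given in the sources used here. Of counts above 0, 23.1% to 26.7% in a library were not whole. Among the actinodins, and1 had such a value in 1 library.

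Counts were rounded and tested with edgeR 4.0.16 in R 4.3.3 (TMM, filterByExpr, robust quasi-likelihood fit of 4 group means, common biological coefficient of variation 0.261), with Benjamini-Hochberg adjustment over 13978 genes and a threshold of 0.05. The script was tested on simulated data. The edgeR test on the recovered reads called 780 genes for excision under DMSO. Correlations were taken on log2 CPM (prior count 2), each with 100000 permutations of all 12 libraries without regard to group.

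The symbol table covered 77.99% of gene IDs. Of the list entries, 92 matched exactly, 68 with case ignored, 77 without a closing paralogue letter and 18 not at all, so some IDs share a symbol. Genes named were the 3 members, the 8 most like them of at least 5 CPM, and up to 4 genes of each list with the smallest adjusted p in the 4 simple comparisons (the 2 most abundant where fewer than 2 were called). Type I and II collagens were named after their values were seen. The list genes of the last section were named outside this rule. They are those called for SB431542 against DMSO averaged over cut and uncut tails, without the floor of 5 CPM. Members and lists were chosen with earlier results of these data known. Alternatives are listed in the closing section.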

Additional observations from a re-analysis of the deposited data

How the results depend on the processing

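No actinodin passed the threshold under any alternative. The smallest edgeR adjusted p was 0.0526, for and2 in SB431542 averaged with library totals alone. Counts of called genes moved by over 1.5 times as follows. For SB431542 against DMSO in uncut tails, called at 11 genes, the count was 1 with RLE scaling, with limma-voom, with a stricter count filter and with library totals alone, 2 on the normalized table with a pseudocount of 1 or of 0.1, 4 with only the 2 groups compared, 109 with no count filter and 331 with DESeq2. In cut tails, called at 40, it was 14 and 9 on the normalized table with pseudocounts of 1 and 0.1, 130 with no filter, 330 with DESeq2 and 537 with only the 2 groups. For excision under SB431542, called at 288, it was 553 with DESeq2 and 127 with only the 2 groups. For excision under DMSO, called at 780, it was 1468 with only the 2 groups. The interaction had 2 calls with DESeq2 and 1 with a pseudocount of 0.1, and SB431542 averaged had 638 with that pseudocount.

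Library totals alone, an alternative chosen after the data were seen, gave 1958 calls for excision under DMSO (1860 higher and 98 lower, against 510 and 270), 814 under SB431542 (783 and 31, against 208 and 80) and 3369 on average (3190 and 179, against 956 and 717). SB431542 averaged then had 827 higher and 155 lower, against 677 and 326. The median of all genes stood at 0.36, 0.30, 0.34 and 0.09 in these 4 comparisons. Under DMSO the log2 fold change was then 0.24 for and1, 0.17 for and2 and 0.375 for and3, and on average 0.11 for and1, 0.0216 for and2 and 0.13 for and3.

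The sign of and3 for excision under DMSO turned with RLE scaling (-0.00710), DESeq2 (-0.00791), limma-voom (-0.0915) and both pseudocounts (-0.11 each), and that of and1 for SB431542 in uncut tails with limma-voom (-0.0222) and both pseudocounts (-0.0364 each). The cause was not tested. On deviations from group means the correlation of and1 with and2 was 0.677. It was 0.457 with uncut SB431542 replicate 4 left out of the correlation but kept in its group mean.

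Whether replicate numbers pair the samples was not settled, and the main fit did not pair them. Deviations from group means correlated above 0.1 in 4 of 13 same-numbered pairs and in 5 of 41 different-numbered pairs. The median correlations were 0.0357 and -0.0218. The highest, 0.343, was between replicate 4 of cut and of uncut SB431542 tails, against 0.182 at most for different-numbered pairs. With the replicate number as a block, calls were 14 for SB431542 in cut and 18 in uncut tails, and3 stood at -0.10 for excision under DMSO and and1 at -0.0122 for SB431542 in uncut tails.

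With each library left out in turn, calls ranged from 321 to 1432 for excision under DMSO, 119 to 399 under SB431542, 9 to 473 for SB431542 in cut tails, 0 to 666 in uncut tails and 317 to 1664 on average. and3 ranged from -0.27 to 0.32 for excision under DMSO and from -0.15 to 0.44 for SB431542 in cut tails. and1 ranged from -0.56 to 0.0182 for excision under SB431542, from -0.30 to 0.23 for SB431542 in uncut tails, from -0.47 to 0.11 for the interaction and from -0.25 to 0.0175 for SB431542 averaged. For averaged excision, and1 ranged from -0.33 to -0.04 and and3 from -0.35 to -0.06. The correlation of and1 with and2 ranged from -0.0877 to 0.621. The log2 ratio of and3 to COL1A2 ranged from -0.0378 to 0.34 for cut against uncut, that of and1 to COL1A2 from -0.0529 to 0.0741 and that of and3 to COL1A1 from -0.0201 to 0.30 for SB431542 against DMSO.

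Actinodin counts ran from 1209 to 27089 per library, and their biological coefficients of variation were 0.168 to 0.226. No detection limit was computed.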

Other observations

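Averaged over cut and uncut tails, SB431542 against DMSO called 9 of 126 tested genes of the 5 fin fold and fibril lists (edgeR adjusted p under 0.05). That is 7.14%, the same share as the 7.18% of all tested genes, so the count is no result about the lists, and no actinodin was called. Of these, 6 were higher with SB431542. They were hapln1a, a hyaluronan link protein gene, at a log2 fold change of 0.78, twist1b, a mesenchymal transcription factor gene, at 1.63, POSTN (ENSDARG00000043806), a periostin gene, at 1.68, frem1b, a Fraser complex gene, at 1.101, HOXD12 at 1.05 and BMP2 at 2.76, the last with a mean of only 0.867 CPM. Another gene with the symbol BMP2, ENSDARG00000041430, averaged at least 5 CPM and was not called. The 3 lower were PCOLCE2 at -1.09, COL12A1 (ENSDARG00000019601) at -0.60 and en1b, an engrailed gene, at -0.55.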
